A study of Mus musculus with 9 samples.

Results

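The elements described here are stretches of the mouse genome with nascent RNA reads in uninduced G1E-ER4 cells. In the parental G1E line, their reads were at or below 1/8 of that level. All were taken from the deposited table of dREG peaks. These are sites of initiation recognised by the dREG method from the shape of nascent transcription on both strands. In which libraries a peak was recognised is not given in the sources used here, so initiation at 0 h is not shown for each element. Each entry of that table is a whole peak or a single strand of one, and is called an element. Reads per element were divided by the library's total over all elements and scaled to a total of 1000000 (CPM). Members were selected on these measured values of G1E and 0 h. An element was a member where its mean at 0 h was at least 0.5 CPM and its mean in G1E was at or below 1/8 of that mean. The rule found 954 members, which belong to 932 distinct peaks, among 42114 elements of 26991 peaks. Of the 27884 elements that reached 0.5 CPM at 0 h, members made up 3.42%.

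PRO-seq, which reads RNA still held by engaged polymerase, was measured in 9 libraries of cultured mouse erythroid cells. G1E (n = 2) is a red cell progenitor line that carries no working GATA1, and the G1E libraries had no treatment. G1E-ER4 is G1E expressing GATA1-ER, a GATA1 fused to the hormone-binding part of the oestrogen receptor, and was sampled without estradiol (0 h, n = 3) and with 100 nM estradiol for 13 h (n = 2) or 24 h (n = 2). All groups grew in the same medium with erythropoietin and kit ligand, and each genotype is represented by 1 line, so a difference between the lines themselves and a difference due to the fusion cannot be told apart. The labels do not say that replicates were separate cultures, so p-values measure only the spread between these libraries. In these bulk libraries, fewer cells using an element and less initiation per cell cannot be told apart either.

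GATA1 binds DNA at GATA motifs and drives red cell maturation, during which globin and haem genes rise and progenitor programmes are shut down. The fusion is held inactive until estradiol binds its receptor part, after which the cells mature. Active promoters and enhancers both start RNA in 2 directions, and gene promoters fall into a class rich in CpG dinucleotides, typical of broadly used genes, and a CpG-poor class that is more often tissue-restricted.

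Reads over all elements summed to between 15394427 and 59952454 per library, so that 1 read was worth 0.0167 to 0.0650 CPM. A single element at Rn45s, the ribosomal RNA precursor, took between 4.99% and 17.4% of them. Reads over gene bodies, from a second deposited table, are given as CPM of that table's own library totals. Gata1 gene-body reads were 222 and 180 CPM in G1E and between 204 and 289 CPM at 0 h, and they do not check the labels, because the disrupted part of Gata1 is not given in the sources used here. Of 15 erythroid marker genes, 13 were at 1 CPM or more in the gene-body table in G1E and 11 at 0 h, against 1 of 14 granulocyte and monocyte markers in both groups. The 16 non-haematopoietic markers summed to at most 1.36 CPM in any library of 0 h and 2.37 CPM in any of G1E. The single markers Mpo, Elane, Csf1r, Cd3e, Alb and Col1a1 stayed below 1 CPM in every group, but other genes of some lists did not. Of 13 lymphocyte markers, 2 were at 1 CPM or more in G1E and 1 at 0 h. The counts were 4 and 5 of 12 mast cell and basophil markers, and 6 and 5 of 11 megakaryocyte markers. In G1E these 3 lists summed to at most 29.3, 221 and 178 CPM in any library. Reads at genes of other blood lineages were therefore present in both groups.

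The promoters of 8 genes whose start is a member are shown first, to show the range of CpG content among them. They were chosen after their values were seen. Each line gives the 200 bases before the annotated start, 5′ to 3′ on the gene's own strand, from RefSeq (build GRCm38.p6), with each CG in capitals. Tusc1, Cenpb and Tulp1 lie on the minus strand and the others on the plus strand. Among genes matched by symbol with only 1 listed start, the first 4 are those with the strongest element at 0 h and a CpG-rich promoter, and the other 4 those with the strongest element and a CpG-poor one. Pkig and Rpl22 (CpG-rich) and Camk1d (CpG-poor) had strong elements too, but have several listed starts and are not printed.
Tusc1: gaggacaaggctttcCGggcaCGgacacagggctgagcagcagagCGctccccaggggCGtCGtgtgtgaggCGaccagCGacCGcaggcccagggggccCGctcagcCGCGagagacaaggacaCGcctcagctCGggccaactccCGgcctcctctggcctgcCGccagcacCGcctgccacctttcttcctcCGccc
Srxn1: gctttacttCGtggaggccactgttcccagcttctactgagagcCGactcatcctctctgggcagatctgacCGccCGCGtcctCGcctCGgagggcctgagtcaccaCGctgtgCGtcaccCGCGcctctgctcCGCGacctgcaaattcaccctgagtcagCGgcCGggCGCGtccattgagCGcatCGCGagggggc
Chsy1: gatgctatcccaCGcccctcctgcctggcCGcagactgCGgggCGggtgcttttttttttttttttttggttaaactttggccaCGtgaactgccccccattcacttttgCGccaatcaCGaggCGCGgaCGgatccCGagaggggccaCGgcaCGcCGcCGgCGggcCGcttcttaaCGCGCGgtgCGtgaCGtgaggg
Cenpb: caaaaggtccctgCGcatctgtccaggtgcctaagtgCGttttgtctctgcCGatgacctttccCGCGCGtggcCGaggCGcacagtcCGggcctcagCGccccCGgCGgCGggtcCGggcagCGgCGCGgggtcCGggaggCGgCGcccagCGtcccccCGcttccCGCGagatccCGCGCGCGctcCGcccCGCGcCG
G730013B05Rik: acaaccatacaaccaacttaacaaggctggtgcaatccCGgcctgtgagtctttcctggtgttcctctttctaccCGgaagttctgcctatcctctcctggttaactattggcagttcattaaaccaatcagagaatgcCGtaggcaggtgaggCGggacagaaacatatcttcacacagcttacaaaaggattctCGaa
Airn: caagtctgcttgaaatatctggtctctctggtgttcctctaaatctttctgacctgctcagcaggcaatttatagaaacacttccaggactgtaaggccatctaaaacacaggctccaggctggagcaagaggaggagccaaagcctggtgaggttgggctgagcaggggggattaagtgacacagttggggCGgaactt
Sdc1: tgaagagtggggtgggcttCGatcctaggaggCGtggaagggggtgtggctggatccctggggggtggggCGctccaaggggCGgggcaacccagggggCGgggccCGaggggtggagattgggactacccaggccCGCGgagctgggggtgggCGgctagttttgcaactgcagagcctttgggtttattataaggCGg
Tulp1: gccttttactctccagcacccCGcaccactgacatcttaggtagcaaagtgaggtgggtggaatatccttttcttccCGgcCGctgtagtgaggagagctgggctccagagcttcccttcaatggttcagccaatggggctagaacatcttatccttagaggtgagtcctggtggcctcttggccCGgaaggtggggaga

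The stretches before Tusc1, Srxn1, Chsy1 and Cenpb hold 17, 20, 22 and 32 CG dinucleotides. Those before G730013B05Rik, Airn, Sdc1 and Tulp1 hold 5, 1, 10 and 4. The Airn element is listed for Igf2r too, but it counts the plus strand, on which Airn lies, while Igf2r lies on the minus strand. Another start element of Igf2r was 27.3 kb away. Tulp1 shares its element with Tead3, so that the reads of that element cannot be assigned to 1 of the genes. Sdc1 encodes the membrane proteoglycan syndecan-1. The Sdc1 element read 0.369 and 0.585 CPM in G1E, 44.9, 54.3 and 44.6 CPM at 0 h, 8.47 and 12.5 at 13 h, and 3.44 and 4.85 at 24 h. The values of the other 7 are given with their genes further on.

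A promoter of 300 bases, 250 before the start and 50 after it, was matched by symbol or synonym for 164 of the 196 genes with a member at their start (83.7%). These genes are all those listed as overlapped by a start element. For some, as Igf2r, the promoter matched may therefore not be the one at the member. An observed over expected CpG ratio of at least 0.6 was found in 73 of the 164 (44.5%). The share was 77.8% of 8065 genes with another start element at 0.5 CPM or more at 0 h, and 35.5% of all 27025 genes of the promoter table. Each gene was given the values of its strongest start member. Genes that share an element therefore repeat its values, also across the classes, as Nf1 (CpG-rich) and Evi2b (CpG-poor) do. The 73 CpG-rich genes had a median log2 ratio to 0 h of −0.27 at 13 h and −0.62 at 24 h, and the 91 CpG-poor genes of −0.73 and −1.59. At 24 h, 9 of the 73 CpG-rich and 31 of the 91 CpG-poor genes were at or below 1/8 of 0 h, and 34 and 28 were within 2-fold of it. The classes also differed in level, with a median at 0 h of 8.19 CPM in the CpG-rich and 3.25 CPM in the CpG-poor genes. The difference between the classes was not tested. The GATA motif AGATAA, searched on both strands (TTATCT on the other), was present in 15 of the 164 promoters (9.15%), in 7.49% of the genes with another start element and in 12.7% of all promoters. The oestrogen response element, GGTCA and TGACC with any 3 bases between, which reads the same on both strands, was in none of the 164, in none of the 8065 and in 0.0740% of all promoters. The letters searched describe these windows only.

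Among the members, 393 lay between genes (41.2%), 260 inside a gene in its sense direction (27.3%), 189 at a gene start (19.8%) and 112 inside a gene in the antisense direction (11.7%), by the authors' own classes. Of the other elements at 0.5 CPM or more, 46.1% lay at a start and 22.4% between genes. Counted the other way, members made up 6.12% of intergenic, 5.29% of antisense, 3.85% of sense and 1.4996% of start elements at that level. By chromosome the share ran from 2.30% on chromosome 8 to 4.71% on chromosome 4. The authors' mark for a regulatory element was set on 63.7% of members and 31.1% of the others. Whole-peak members were shorter, with a median length of 1651 bases against 2601.

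Levels of the members spanned a wide range, and most were low. The median member stood at 1.79 CPM at 0 h and 0.0577 CPM in G1E, with 303 members between 0.5 and 1 CPM at 0 h and 128 at 10 CPM or more. A median of 207.5 reads over the 3 libraries of 0 h and 4 reads over both G1E libraries stood behind these values. In 170 members neither G1E library had a read, which allows up to 0.0511 CPM (3 reads over the group; counting error only). In 952 of 954 the lowest library of 0 h was above the higher of G1E, which the choice of members largely fixes. Replicate 1 of 0 h was the highest of the 3 in 761 members (79.8%), against 62.6% of the other elements at this level. Its median member level was 2.50 CPM, against 1.31 and 1.36 CPM in replicates 2 and 3. Without that replicate the rule gave 738 members, and 623 were members whichever of the 5 chosen libraries was left out.

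At the ratio limit, the 3 members just inside had G1E over 0 h ratios of 0.1241, 0.1244 and 0.1250 (elements near Nmur1, near Cdx1 and in the Dnajb2 and Ptprn region), and the 3 elements just outside 0.1252, 0.1256 and 0.1266. At the level limit, the 3 just inside were at 0.506, 0.507 and 0.507 CPM and the 3 just outside at 0.4980, 0.4988 and 0.4995 CPM.

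Of the 10 members with the highest level at 0 h, 8 lay at gene starts. The strongest was at a start of Pkig, an inhibitor of protein kinase A (chr2:163517000-163520101, build mm9 as for all element positions). It read 8.61 and 6.24 CPM in G1E, 973, 855 and 730 CPM at 0 h, 679 and 516 at 13 h, and 704 and 693 at 24 h. All 7 G1E-ER4 libraries stood far above both G1E libraries, the 0 h mean being 115-fold the G1E mean. Another start of Pkig, 33.8 kb away, was used in both lines, at 9.89 CPM in G1E and 16.3 CPM at 0 h on one strand. The gene body of Pkig read 44.5 and 43.3 CPM in G1E and between 80.5 and 101 CPM at 0 h, so that it differed less than the start element.

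The start of Rpl22, a protein of the large ribosomal subunit, was the second strongest (chr4:151698500-151703251). Its reads were 0.208 and 0 CPM in G1E, 166, 146 and 179 CPM at 0 h, 51.6 and 73.0 at 13 h, and 35.2 and 26.7 at 24 h. The gene body followed, with 0.125 and 0.0529 CPM in G1E, between 186 and 201 CPM at 0 h, and 24.7 and 16.4 CPM at 24 h. From 13 h to 24 h the element's change of −0.86 ± 0.29 (log2, SE) did not pass the test (adjusted p = 0.0686, edgeR quasi-likelihood test with Benjamini-Hochberg adjustment), whereas the gene body fell by 1.20 ± 0.26 (adjusted p = 0.00938, same test).

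**Figure D1:**
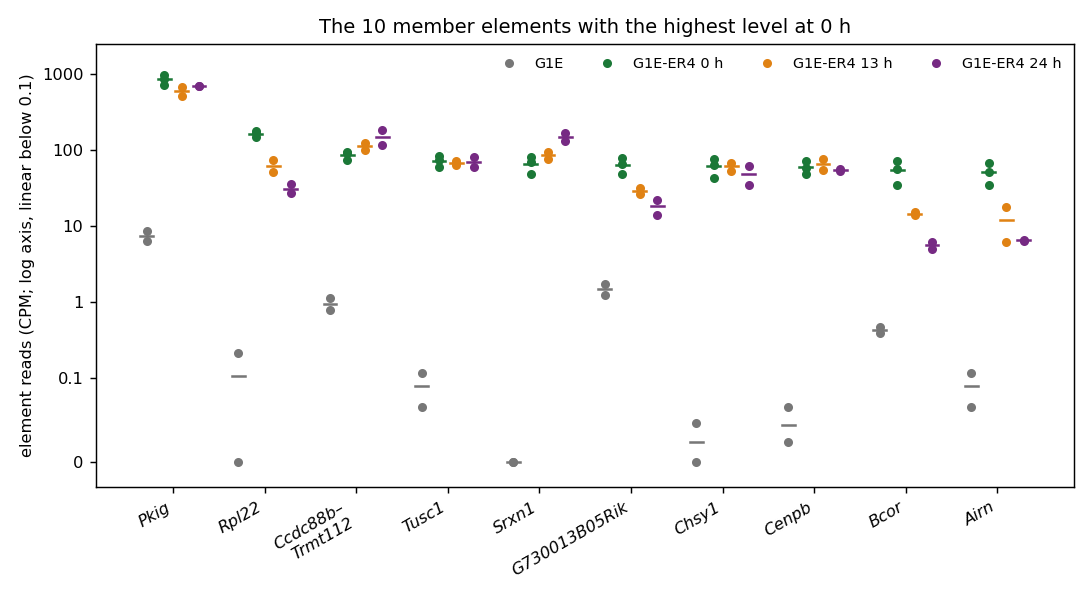
Reads in CPM (vertical axis, logarithmic above 0.1) of the 10 members highest at 0 h, named by gene or flanking genes; each point is a library and each short bar a group mean. The 0 h libraries of every element lie above both G1E libraries, while at 24 h 5 of the 10 are within 2-fold of the 0 h mean, 1 is higher and 4 are lower.

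Srxn1 encodes sulfiredoxin, which restores oxidised peroxiredoxins. Its start (chr2:151930450-151932651) had no read in G1E and 80.8, 69.7 and 47.9 CPM at 0 h, at least 1295-fold higher. It went on to 95.4 and 76.8 CPM at 13 h and 169 and 130 CPM at 24 h, and the groups of 13 h and 24 h did not overlap. The rise from 13 h to 24 h was 0.95 ± 0.22 on the log2 scale (adjusted p = 0.0150, edgeR quasi-likelihood test, Benjamini-Hochberg). The Srxn1 gene body also had no read in G1E and rose by 1.01 ± 0.24 between the same times (adjusted p = 0.0168, same test).

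Tusc1, Chsy1 and Cenpb at 24 h were within 2-fold of 0 h. The Tusc1 start (chr4:93000850-93003001) read 0.115 and 0.0650 CPM in G1E and between 60.1 and 82.2 CPM in all 7 G1E-ER4 libraries. The start of Cenpb (chr2:131004100-131007301), whose protein binds centromeric repeats, had 2 reads in G1E and between 48.1 and 76.8 CPM in G1E-ER4. At the start of Chsy1, a chondroitin sulfate synthase (chr7:73252950-73256601), G1E likewise had 2 reads and G1E-ER4 between 34.7 and 76.5 CPM, with 61.7 and 34.7 CPM at 24 h. The ratio of 0 h to G1E was 1670 (95% counting interval 462 to 13793). None of the 3 passed the test between 13 h and 24 h (adjusted p of 0.527, 0.697 and 0.812 for Tusc1, Chsy1 and Cenpb, edgeR).

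The remaining members among the 10 took different courses. The element between Ccdc88b and Trmt112 (chr19:6965750-6970851) had 1.11 and 0.780 CPM in G1E, 73.1, 92.2 and 95.4 CPM at 0 h and 117 and 182 CPM at 24 h. The start of the unnamed transcript G730013B05Rik (chr16:50528000-50530851) went from 78.3, 65.0 and 48.3 CPM at 0 h to 22.1 and 13.9 CPM at 24 h. An element inside Bcor, which encodes the BCL6 corepressor (chrX:11703700-11708001), had 71.8, 55.9 and 34.98 CPM at 0 h, 13.99 and 15.1 at 13 h, and 6.11 and 4.91 at 24 h. It fell by 1.24 ± 0.27 between 13 h and 24 h (log2; adjusted p = 0.0112, edgeR), with no overlap of the groups.

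The last of the 10 was a plus-strand element at the start of Airn (chr17:12933700-12936301), the imprinted non-coding RNA transcribed against Igf2r. It read 0.115 and 0.0650 CPM in G1E, 51.9, 68.0 and 34.5 CPM at 0 h, 6.17 and 17.6 at 13 h, and 6.53 and 6.40 at 24 h. Airn gene-body reads were 18.002 and 15.4 CPM in G1E, between 319 and 421 CPM at 0 h, and 80.6 and 79.4 CPM at 13 h. Igf2r gene-body reads were 186 and 157 CPM in G1E and between 117 and 143 CPM at 0 h. Whether the gene-body counts used strand is not given in the sources used here, so reads of Airn and Igf2r cannot be told apart where the genes overlap. Of the 196 genes with a member at their start, 17 had a different start element at 0.5 CPM or more in G1E, as Pkig did.

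Because high reads at 0 h chose the members, their levels at 13 h and 24 h are set against 0 h as a description, without a test. The median member was at −1.07 (log2 ratio of mean CPM with 0.05 added) at 13 h and −2.53 at 24 h, against −0.05 and −0.22 in the other elements. At 13 h, 213 members (22.3%) were at or below 1/8 of 0 h, where the share was 4.93% of all elements at 0.5 CPM or more, and 344 (36.1%) were within 2-fold, where it was 68.4%. At 24 h, 442 (46.3%) were at or below 1/8 (12.3% of all), and 207 (21.7%) were within 2-fold (53.0% of all). Members more than 2-fold above 0 h numbered 107 (11.2%; 11.1% of all) at 13 h and 68 (7.13%; 14.5% of all) at 24 h. Without replicate 1 of 0 h the medians were −0.74 and −2.05.

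The difference from 0 h was smallest at gene starts. Start members had medians of −0.57 at 13 h and −1.14 at 24 h, intergenic members of −1.31 and −2.92, sense members of −1.13 and −2.50, and antisense members of −1.19 and −2.48. Starts also differed least among the other elements at 0.5 CPM or more. Their medians at 24 h were 0.06 at starts, −0.09 for sense, −1.21 for intergenic and −1.25 for antisense elements. Of the 954, 153 stayed within 2-fold of 0 h at both times, 54 were more than 2-fold above at both, and 8 were more than 2-fold above at 13 h and under 0.5 of 0 h at 24 h. At 24 h, 80 had no read in either library. These counts were not made over all elements. The authors' clusters, whose meaning is not given in the sources used here, put 411 members in cluster 6, of which 378 were at or below 1/8 of 0 h at 24 h, and 390 in cluster 4, of which 36 were. Among the other elements at 0.5 CPM or more, 38.0% of 859 in cluster 6 and 0 of 423 in cluster 4 were at or below 1/8.

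**Figure D2:**
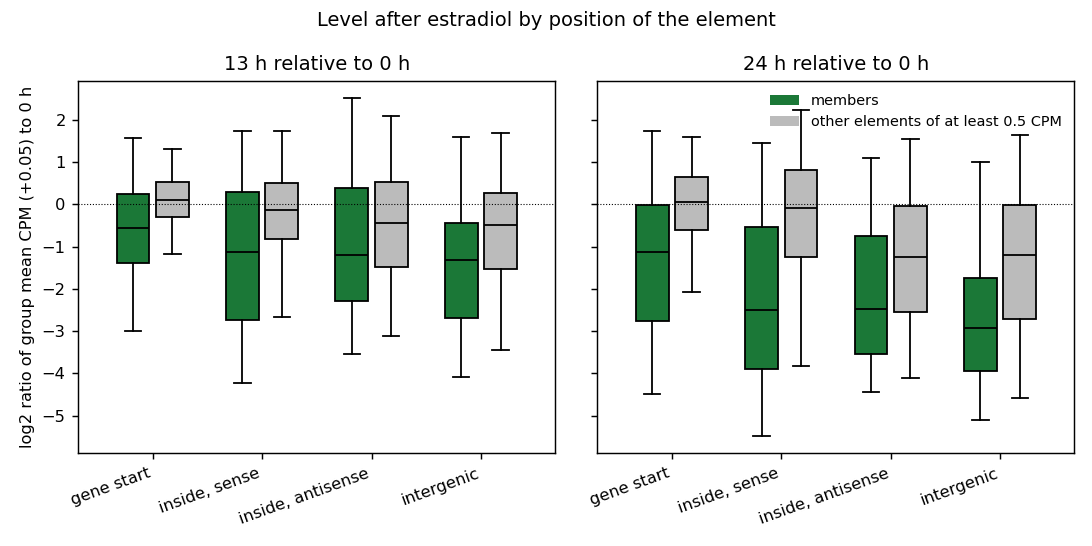
Log2 ratio of mean CPM at 13 h (left) and 24 h (right) to 0 h, by the authors' position class, for members (green) and other elements of at least 0.5 CPM at 0 h (grey); boxes span the middle quartiles, lines mark medians and whiskers reach the 5th and 95th percentiles. Member medians at 24 h run from −1.14 at gene starts to −2.92 between genes.

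The change between 13 h and 24 h rests on libraries that the rule did not use. Same-numbered libraries of 0 h and 13 h deviated together, however (r = 0.48 over elements), so the 13 h levels are not wholly free of the choice of members. The numbers that open the library titles form series of consecutive numbers, and no 13 h library shares a series with a 24 h library. What these numbers stand for is not given, so a change with time and a difference between series cannot be told apart. Of the 954 members, 944 passed the expression filter, and the other 10 were too low to be tested. The edgeR quasi-likelihood test, at a Benjamini-Hochberg adjusted p of 0.05 over all 35158 elements, called 162 lower at 24 h, or 17.2% of those tested, where 7.82% of all elements tested were lower. It called 15 higher (1.59%), where 5.28% of all were higher. The median change was −1.11 on the log2 scale, against −0.08 over all elements. The filter used every library, those of 0 h included. With the 13 h and 24 h libraries alone, 638 members were tested, of which 157 were lower (24.6%) and 16 higher (2.51%), where 8.43% and 6.80% of all 29186 elements tested were. The count rested on few libraries. Without any 1 library of 13 h or 24 h, fewer members were called lower, as were fewer of all elements. The median change of members was then −0.83 without replicate 2 of 24 h (−0.05 over all elements) and −1.68 without replicate 1 (−0.11). It was −1.03 without replicate 1 of 13 h and −1.10 without replicate 2 of 13 h (−0.03 over all elements in each). Members were lower in 24 h replicate 2 than in replicate 1 in 63.0% of cases, and the other elements at this level in 59.2%.

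By position, 80 of 389 tested intergenic members fell and 1 rose, against 15.1% lower and 2.33% higher among the other intergenic elements. Of 187 start members, 22 fell and 10 rose (5.03% and 8.09% among other starts). Of 259 sense members, 37 fell and 4 rose, and of 109 antisense members 23 fell and none rose (7.39% and 9.07% of other sense elements, 15.5% and 1.45% of other antisense elements).

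**Figure D3:**
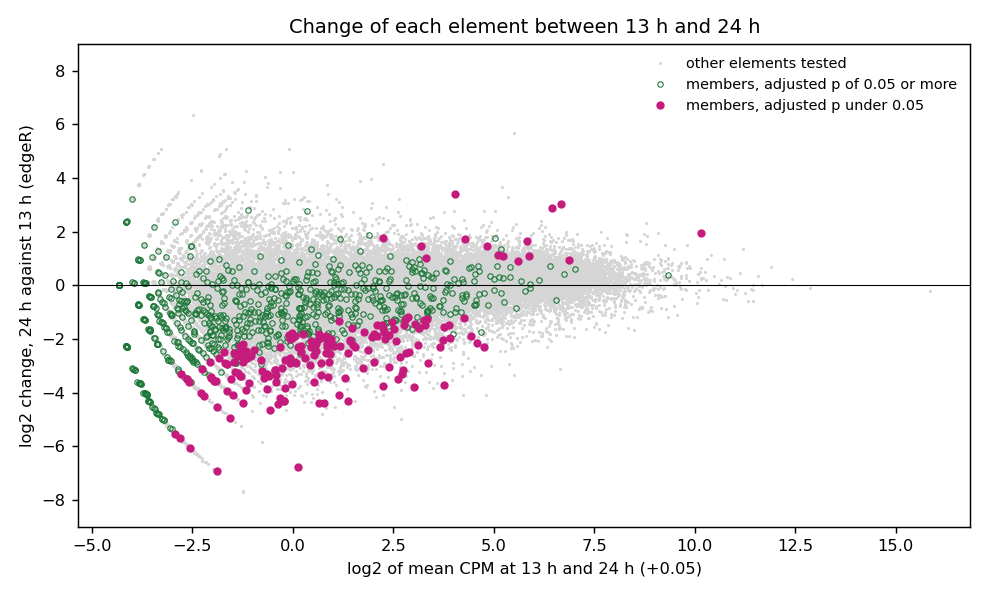
Log2 change from 13 h to 24 h (edgeR) against the log2 mean CPM of both times, for members called (filled), members not called (open) and other elements tested (grey). Of the 177 called members 162 lie below 0 and 15 above it, and the diagonal streaks at the left are elements with no or few reads at 1 of the times.

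The largest rises were at Rragd, which encodes a Rag GTPase that signals amino acid supply to mTORC1. Its start (chr4:33068550-33071701) read 0.0461 and 0.130 CPM in G1E, 6.42, 5.46 and 6.22 at 0 h, 21.9 and 24.2 at 13 h, and 83.8 and 217 at 24 h. The rise from 13 h to 24 h was 2.90 ± 0.39 (log2, SE; adjusted p = 0.00163, edgeR). A pair of elements inside the gene rose by 3.03 ± 0.50 and 3.40 ± 0.64 (adjusted p = 0.00529 and 0.00907, edgeR), and the gene body by 3.06 ± 0.39 (adjusted p = 0.00166). In all 4 measures each library of 24 h was above each of 13 h, and replicate 2 of 24 h was the highest. Without replicate 1 of 13 h the inner elements had adjusted p of 0.0735 and 0.0902, and the start 0.0156.

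The member at the start of Hbb-b1, the adult beta globin gene (chr7:110972500-110977051), read 1.96 and 0.909 CPM in G1E and 14.4, 25.6 and 22.001 CPM at 0 h. It reached 747 and 301 CPM at 13 h and 1467 and 2078 CPM at 24 h, a rise of 1.94 ± 0.46 between these times (adjusted p = 0.0197, edgeR). Replicates of 13 h differed widely, and without replicate 2 of 24 h the adjusted p was 0.145. The element is listed under both names Hbb-b1 and Hbb-bs, and its reads were not divided between them. A minus-strand element inside Tbc1d8 (chr1:39485950-39488101) rose by 1.75 ± 0.54 (adjusted p = 0.0462, edgeR), from 1.67 and 3.01 CPM to 3.99 and 9.99 CPM, and lost the call in 8 of 15 other settings.

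The largest falls were in weak elements that ended at or near 0 reads. An antisense element in 6330403A02Rik (chr1:182362000-182362601) read 0.620 and 0.273 CPM at 13 h and 0 at 24 h, at least 10.98-fold lower (adjusted p = 0.0118, edgeR). An element between Gm5820 and Spry4 (chr18:38824350-38825701) read 3.23 and 0.920 CPM at 13 h and had 1 read in all at 24 h, a ratio of 143 with a 95% counting interval of 25.3 to 5706 (adjusted p = 0.00610). The mean of this element was also higher at 13 h than at 0 h, where it read 1.36, 0.244 and 0.2502 CPM. The groups of 0 h and 13 h overlapped, and this difference was not tested.

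The next 3 falls were between Fchsd2 and P2ry2 (chr7:108189950-108191051), between Csrp1 and Nav1 (chr1:137596450-137598201) and between Arhgef3 and Fam208a (chr14:28224300-28225101). Against 3 reads over the 24 h group they were at least 5.87-fold, 4.58-fold and 4.04-fold lower than at 13 h (adjusted p = 0.0440, 0.0266 and 0.0385, edgeR). They had only 17, 13 and 12 reads at 13 h, and lost the call in 6 of 13, 3 of 14 and 6 of 13 other settings.

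Among members of at least 2 CPM at 0 h, the ratio of 13 h to 0 h was highest at Hbb-b1 and Rragd, described above, and at 3 further members. An element inside Rnf220, which encodes a ubiquitin ligase (chr4:116984400-116987951), read 9.11, 4.67 and 4.09 CPM at 0 h, 40.1 and 39.1 at 13 h, and 7.95 and 7.94 at 24 h. It fell by 2.15 ± 0.32 from 13 h to 24 h (log2; adjusted p = 0.00209, edgeR), while the gene body of Rnf220 changed by 0.13 ± 0.13 (adjusted p = 0.521). An element between Car12 and Usp3 (chr9:66468100-66469851) went from 3.92, 1.37 and 0.901 CPM to 17.0 and 10.3 and then to 7.90 and 4.88, which did not pass the test (adjusted p = 0.216). An antisense element in Nrros (chr16:32153150-32155601) read 30.5, 7.96 and 5.77 CPM at 0 h, 147 and 51.2 at 13 h, and 106 and 126 at 24 h (adjusted p = 0.755). In all 3 elements replicate 1 of 0 h was the highest of its group.

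The lowest ratios of 13 h to 0 h, at the same minimum of 2 CPM, were in members with few or no reads at 13 h. An element inside Cyp11a1, which encodes the first enzyme of steroid hormone synthesis (chr9:57869150-57870151), went from 3.89, 5.18 and 4.75 CPM to 0 at 13 h, at least 111-fold lower. The Cyp11a1 gene body was low at 13 h too. It read between 18.3 and 18.5 CPM at 0 h and 0.327 and 0.118 CPM at 13 h, and it fell between 13 h and 24 h (adjusted p = 0.0450, edgeR).

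Similarly low were an element in Olfr1404 with 1 read at 13 h (chr1:175145950-175147901), one between Asb1 and Twist2 (chr1:93574950-93576301) with 2 reads and one between Gm1968 and Opa1 (chr16:29713800-29715551) with 2. Their ratios of 0 h to 13 h were 151 (95% counting interval 26.8 to 5971), 138 (38.1 to 1146) and 126 (34.7 to 1044). Fcer1a, the mast cell receptor gene, is the neighbour of the Olfr1404 element.

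Members lay at the start of, or inside, 451 genes, and 437 of these passed the filter in the gene-body table. From 13 h to 24 h, 94 gene bodies fell (21.5%, where 12.5% of all 13825 genes tested fell) and 30 rose (6.86%, where 11.7% of all rose), by edgeR at an adjusted p of 0.05. With total counts in place of TMM scaling the split was 136 lower (31.1%, 22.3% of all genes) and 11 higher (2.52%, 4.64% of all). The median change was −0.56 on the log2 scale against −0.05 over all genes. Without replicate 2 of 24 h it was −0.42 (−0.07 over all genes). It was −0.47 without replicate 1 of 13 h (−0.02) and −0.54 without replicate 2 of 13 h (−0.01). In each of these settings fewer gene bodies were called lower, as were fewer of all genes.

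Whether the gene body shared the low level in G1E depended on where the member lay. Of 196 genes with a member at their start, 174 had at least 0.5 gene-body CPM at 0 h. In 128 of these G1E was at or below 1/8 of 0 h, in 28 between 1/8 and 0.5 of it, and in 18 at 0.5 of it or more, with a median log2 ratio of −4.12. Of 255 genes with members only inside, 220 reached that level, with 47, 57 and 116 in the same classes and a median of −0.85. The reads of an element inside a gene are also part of its gene body, so the measures are not independent. For start members too, G1E and 0 h are the libraries that chose the members, so these classes are a description without a test. They were not counted over all genes.

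Bcor, Etv6 and Gata1 are examples of a gene with gene-body reads in both lines that holds a member. Etv6, an ETS-family repressor, had gene-body reads of 451 and 483 CPM in G1E and between 584 and 679 CPM at 0 h. An antisense element in it (chr6:134135350-134137101) read 0.0923 and 0.0650 CPM in G1E and 2.47, 0.823 and 0.967 CPM at 0 h. It fell by 2.64 ± 0.82 between 13 h and 24 h (log2; adjusted p = 0.0476, edgeR).

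**Figure D4:**
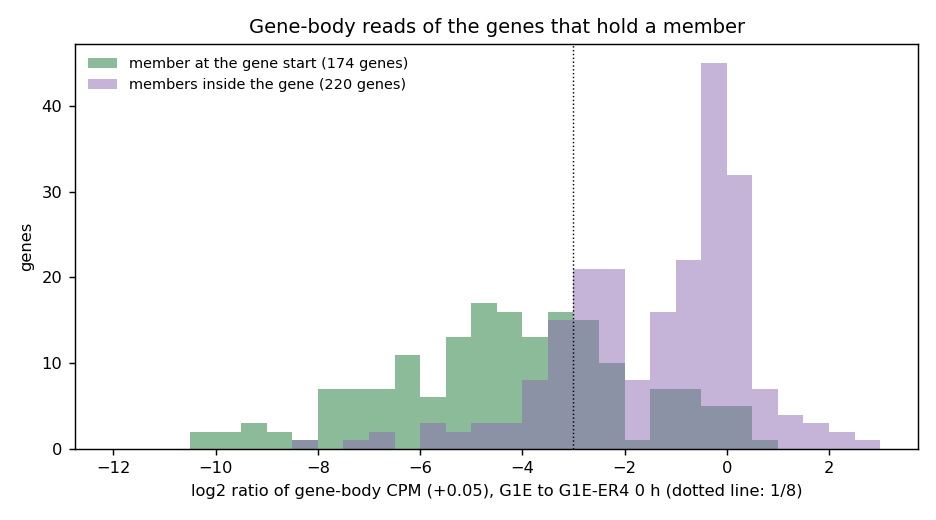
Histogram of the log2 ratio of gene-body CPM, G1E to G1E-ER4 at 0 h, for genes of at least 0.5 CPM at 0 h with a member at their start (174 genes, green) or only inside (220 genes, purple). The medians are −4.12 and −0.85, and the dotted line marks 1/8.

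Neighbouring members were grouped into runs, which were not compared with runs of other peaks. With gaps of at most 500 kb, 54 runs of 4 or more member peaks held 269 peaks, 152 runs held 2 or 3, and 310 peaks stood alone. There were 14 runs of at least 6 peaks, and in 3 of them, at Chsy1, Peli1 and Spry4, every peak of at least 0.5 CPM at 0 h was a member. In these 14 runs, 94 of 95 members were tested, of which 24 fell between 13 h and 24 h and 1 rose (edgeR, adjusted p of 0.05), where 17.2% of all members tested and 7.82% of all elements tested fell.

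The Chsy1 run spanned 69.6 kb (chr7:73252950-73322551) and lay at the start, inside and beyond the gene. Its 6 members had between 5.19 and 60.7 CPM at 0 h and at most 0.506 CPM in G1E, and kept between 4.02 and 48.2 CPM at 24 h. None of the 6 passed the edgeR test between 13 h and 24 h. The Chsy1 gene body read 0.260 and 0.0529 CPM in G1E and between 86.3 and 265 CPM in all 7 G1E-ER4 libraries.

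Spry4 encodes an inhibitor of receptor tyrosine kinase signalling, and its run spanned 123 kb (chr18:38702750-38825701). The start member (chr18:38759050-38762151) read 0.0923 and 0.0650 CPM in G1E, 40.01, 40.6 and 34.5 CPM at 0 h, 30.3 and 19.9 at 13 h, and 2.02 and 1.43 at 24 h. All 6 members fell between 13 h and 24 h (adjusted p from 6.79e-05 to 0.0343, edgeR), the start by 3.70 on the log2 scale. The Spry4 gene body fell by 4.93 ± 0.32 (adjusted p = 0.000142), from 18.5 and 11.2 CPM to 0.432 and 0.368 CPM.

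At Peli1, a ubiquitin ligase gene, the run spanned 110 kb (chr11:20982550-21092551). Its strongest member, between Peli1 and Vps54 (chr11:21066150-21067901), had 64.8, 39.3 and 37.9 CPM at 0 h and 10.9 and 11.6 CPM at 24 h. All 6 members had a negative change between 13 h and 24 h and 1 passed the test. The Peli1 gene body, in contrast, had 74.5 CPM in both G1E libraries and between 85.2 and 113 CPM at 0 h.

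The longest run by count held 12 peaks over 623 kb (chr5:140684350-141307301), with members in Mad1l1 and at the starts of Grifin, Lfng, Ttyh3 and Gna12. It held 24 peaks at 0.5 CPM or more in all. The start of Lfng, the fringe enzyme that modifies Notch (chr5:141082650-141089501), was its strongest member, with 0.0231 and 0 CPM in G1E, 31.9, 19.8 and 22.5 at 0 h, 1.71 and 1.14 at 13 h, and 0.446 and 0.253 at 24 h. It fell between 13 h and 24 h (adjusted p = 0.0117, edgeR), and the start of Gna12, a G protein alpha subunit, rose by 1.11 on the log2 scale (adjusted p = 0.0162). Within 1 run, members moved in opposite directions. The gene bodies of Lfng and Gna12 had at most 0.0833 CPM in either G1E library and at least 4.19 and 62.6 CPM in the libraries of 0 h.

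**Figure D5:**
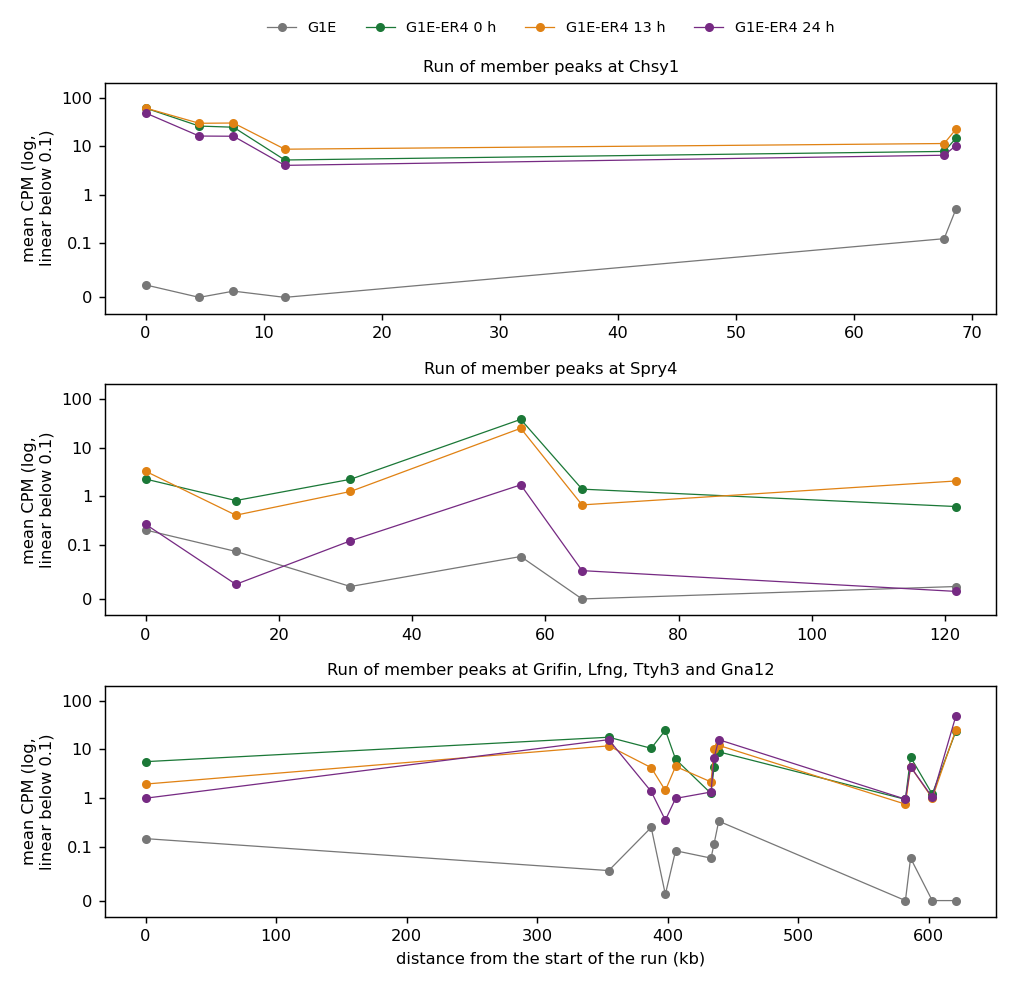
Mean CPM of each member peak (vertical axis, logarithmic above 0.1) against its distance in kb from the start of the run, for 3 runs, with 1 colour per group. At Chsy1 the 24 h means stay between 4.02 and 48.2 CPM, at Spry4 they are at most 1.73 CPM, and in the third run some members fall and others rise.

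Other runs of this size were at or near Bcor (8 peaks of 17 at 0.5 CPM or more in the span), Ksr1 (7 of 34), Slc30a2 and Extl1 (7 of 10), Mgll (7 of 12), Gna14 (6 of 10), Gse1 (6 of 9), Csrp1 and Nav1 (6 of 17), Tead3 (6 of 34) and Tinagl1 (6 of 63). Ksr1 scaffolds the MAP kinase cascade, and the member at its start (chr11:78958600-78960401) read 4.06 and 1.75 CPM in G1E and 26.9, 46.0 and 27.5 CPM at 0 h. At Slc30a2, a zinc transporter gene, the start member (chr4:133897550-133901001) had 1.62 and 1.10 CPM in G1E, 46.1, 37.4 and 39.5 CPM at 0 h and 31.2 and 25.2 CPM at 24 h. Gna14 encodes a G protein alpha subunit, and its strongest member (chr19:16551050-16553451) went from 27.8, 11.1 and 16.5 CPM at 0 h to 0.892 and 0.253 CPM at 24 h.

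At Mgll, monoacylglycerol lipase, the start member (chr6:88673850-88675501) read 0.0231 and 0 CPM in G1E, 17.5, 16.2 and 12.8 CPM at 0 h, and 16.0 and 5.95 CPM at 24 h. The start of Tead3, a TEAD transcription factor (chr17:28486300-28492051), read 1.62 and 1.56 CPM in G1E, between 39.8 and 43.6 CPM at 0 h, and 12.9 and 19.1 CPM at 24 h. The top member near Gse1 (chr8:122849050-122851301) went from 16.1, 6.16 and 8.87 CPM at 0 h to 1.47 and 0.309 CPM at 24 h, and that between Csrp1 and Nav1 (chr1:137610200-137612701) from 23.4, 6.83 and 10.0 CPM to 0.131 and 0.0281 CPM. The start of Tinagl1 (chr4:129851600-129852551) was weaker, at 1.64, 2.07 and 1.92 CPM at 0 h and 0.551 and 0.337 CPM at 24 h.

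Esr1, the gene of oestrogen receptor alpha, held 5 members, between 452 and 602 bases long and within 145 kb (chr10:5345050-5489801). In 4 of them G1E had no read, and the fifth had 1. The strongest (chr10:5348400-5348901) read 34.2, 14.1 and 14.6 CPM at 0 h, 25.3 and 14.1 at 13 h, and 21.9 and 35.3 at 24 h. Over the 5 elements the ratio to 0 h was 0.782 to 1.13 at 13 h and 1.07 to 1.501 at 24 h, and none passed the test between 13 h and 24 h. Esr1 gene-body reads were 0.843 and 0.582 CPM in G1E and 32.6, 13.0 and 11.9 CPM at 0 h. Since the fusion carries the hormone-binding part of an oestrogen receptor, reads of the fusion and of Esr1 itself cannot be told apart in these counts.

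The plus-strand element that lies antisense in Gata1 (chrX:7536050-7538101) read 0.231 and 0 CPM in G1E, 6.98, 7.32 and 4.42 at 0 h, 13.4 and 7.13 at 13 h, and 10.2 and 12.3 at 24 h. The groups of 13 h and 24 h overlapped. Gata1 gene-body reads, in contrast, differed little between the lines, as given above. In G1E-ER4, reads of the GATA1 part of the fusion and of Gata1 itself cannot be told apart in these counts.

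Lists of marker genes chosen for the cell types that a progenitor culture could hold were searched for members. Of 19558 genes with any read in the gene-body table, 449 had a member at the start or inside, and the lists were not tested against that share. Of 15 erythroid genes, 2 had a member at the start or inside (Gata1 and Hbb-b1), and a member had Slc4a1 or Hbb-b2 as a listed neighbour. The counts were 2 of 14 stem and progenitor genes (Etv6 and Fli1), 1 of 12 mast cell and basophil genes (Ms4a2), 1 of 11 megakaryocyte genes (Selp) and 1 of 12 textbook oestrogen receptor targets (Esr1). None of 14 granulocyte and monocyte, 13 lymphocyte and 16 non-haematopoietic genes had one. Kit, Gata2, Myc, Myb, Klf1, Zfpm1, Tal1 and Lmo2 held none either.

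Fli1, an ETS factor of progenitors and megakaryocytes, held 3 minus-strand members in its sense direction. The first (chr9:32265500-32267551) read 0.346 and 0.195 CPM in G1E, 3.49, 4.97 and 4.55 at 0 h, 5.80 and 8.28 at 13 h, and 13.9 and 4.71 at 24 h. Fli1 gene-body reads were 24.999 and 20.3 CPM in G1E, between 133 and 239 CPM at 0 h, and 437 and 142 CPM at 24 h. No Fli1 member passed the test between 13 h and 24 h (adjusted p from 0.454 to 0.805, edgeR), and its replicates of 24 h stood far apart.

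The member at the start of Ms4a2, the beta chain of the high-affinity IgE receptor (chr19:11696950-11698801), read 1.02, 0.305 and 1.87 CPM at 0 h and had 1 read in the 4 later libraries together. The element in Selp, P-selectin (chr1:166064150-166066501), had no read in G1E, 3.83, 1.28 and 1.05 CPM at 0 h, and 0.131 and 0 CPM at 24 h. Near Meis1, a progenitor homeobox factor, a member (chr11:18777250-18779901) went from 5.43, 3.69 and 2.29 CPM to 1.47 and 0.393 CPM at 24 h. The mast cell gene bodies in the list at 1 CPM or more numbered 4 of 12 in G1E, 5 at 0 h, 3 at 13 h and 1 at 24 h, and their part in these results was not tested.

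A pair of members had lymphoid genes as neighbours. The element in Cd3d, next to Cd3e and Cd3g, which encode parts of the T cell receptor complex (chr9:44793450-44795301), read 5.03, 2.07 and 1.60 CPM at 0 h, 0.775 and 0.323 at 13 h, and 0.184 and 0.0561 at 24 h. Its change between 13 h and 24 h was −1.98 ± 0.75 (log2, SE; adjusted p = 0.0952, edgeR). A plus-strand element near Rag1, the recombinase of lymphocytes (chr2:101492350-101493451), had 0.496 and 0.547 CPM at 13 h and 2 reads in all at 24 h, a ratio of 19.3 (95% counting interval 4.996 to 165; adjusted p = 0.0253, edgeR). The Cd3d gene body stayed at or below 0.141 CPM in every library.

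Members near Srgn, Nrip1, Slc4a1 and Nbeal2 complete the list genes. The one near Srgn, the granule proteoglycan serglycin (chr10:62013850-62014901), spread from 0.305 to 2.75 CPM over the 3 libraries of 0 h. The one beside Nrip1, a nuclear receptor corepressor (chr16:76811000-76812401), had 67 reads at 0 h and 1 at 24 h. Near Slc4a1, the red cell anion exchanger, a member (chr11:102203100-102203951) read 0.247, 0.183 and 1.73 CPM at 0 h and 1.68 and 2.55 CPM at 24 h, and its change from 13 h did not pass the test (adjusted p = 0.0871, edgeR). The minus-strand element in Pth1r near Nbeal2 (chr9:110635000-110635801) had 60 reads at 0 h and 1 at 24 h.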

How the data were processed

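PRO-seq was measured in 9 libraries, grouped by cell line and hours of estradiol from the labels. The authors' deposited tables give raw read counts per dREG peak or peak strand and per gene body, and the authors' position of a peak along a gene as a percent, per the file headers. The submitters' processing notes name BWA and mm9, and no source used here gives tool versions, the counting tool, the gene annotation, whether peaks were called on pooled libraries or whether PCR copies were removed. Element totals of 15394427 to 59952454 counts per library limit the precision, and intervals (exact, 95%) cover counting error only.

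CPM, the member rule and ratios to 0 h (0.05 CPM added) were computed from the counts. The change between 13 h and 24 h was fitted on each whole table with edgeR 4.0.16 in R 4.3.3 (TMM scaling, default filter, 4 group means, robust quasi-likelihood test, Benjamini-Hochberg adjustment over all 35158 elements or 13825 genes), after tests on simulated data. The SE is the absolute log2 change over the square root of F. DESeq2 1.42.0, other scalings and filters, left-out libraries and a replicate block were alternatives. A group at 0 reads is replaced by 3 reads over the group, and 1 to 3 reads give a ratio of pooled CPM with its interval.

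Named are the 10 members highest at 0 h, the 5 largest called changes each way between 13 h and 24 h, the 5 highest and the 5 lowest at 13 h over 0 h among those of at least 2 CPM at 0 h, the members next to each limit of the rule, the strongest of each run, and those at genes of 8 marker lists (erythroid, stem and progenitor, mast cell and basophil, megakaryocyte, granulocyte and monocyte, lymphocyte, oestrogen receptor targets, non-haematopoietic) and 10 regulator genes. Runs of 4 or 5 peaks are given as counts. Some genes that the rule names are left out of the text. The members and lists were chosen with earlier results of these data known. Promoters and symbols come from RefSeq (GRCm38.p6), matched by name, since no sequence of build mm9 was used here.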

Additional observations from a re-analysis of the deposited data

How the results depend on the processing

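Between 13 h and 24 h, leaving out 1 library gave 33 to 193 members lower and 3 to 17 higher, and 41 to 112 of their gene bodies lower and 11 to 31 higher. The members higher at 24 h numbered 9 with total counts and 7 with the scaling of the gene-body table. The gene bodies lower numbered 53 with the 13 h and 24 h libraries alone, and those higher 11 with total counts, 16 with those libraries alone and 18 with the replicate number as a block. Same-numbered libraries of 13 h and 24 h did not deviate together (r = −0.01 over elements and −0.14 over gene bodies), so the numbers were not taken as pairs. Those of 0 h and 13 h, which share only 2 numbers, correlated at r = 0.48 and 0.49. The change from 13 h to 24 h is therefore not wholly free of the choice of members, and the ratios to 0 h carry no test. With the replicate block 213 members were lower (22.6%, 9.76% of all elements) and 19 higher (2.01%, 7.03%), and 87 gene bodies lower (19.9%, 9.45% of all genes). With the numbers of 13 h and 24 h crossed, chosen after seeing the data, 80 gene bodies were lower (19.7%, 11.9% of all) and 26 higher (6.4%, 12.9%). The rule gave 1478 members at a G1E limit of 1/4 and 738 to 1128 without 1 library, and 931 members were shared with TMM-scaled totals. With 0.25 CPM added the medians were −0.91 at 13 h and −1.66 at 24 h, and without 1 library they ran from −1.21 to −0.74 and from −2.93 to −2.05. Of 240 alternative values, 186 were classed as the same, 31 lost the call, 23 moved and none reversed. A count was the same where it lay within a fixed fold of the main count, and a count cannot reverse. A median ratio to 0 h was the same where it moved by less than the SD between libraries. That SD was 0.106 at 13 h and 0.504 at 24 h on the log2 scale, and these medians have no call. DESeq2 called 202 members lower (21.4%, 9.96% of all elements) and 19 higher (2.01%, 7.52% of all). Members at the 0.5 CPM limit hold few reads in G1E, where 1 read in replicate 2 is 0.0650 CPM.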
